A study of Mus musculus with 6 samples.

Results

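Slow-twitch muscle fibres build their contractile apparatus and their calcium store from proteins encoded by genes other than those used in fast-twitch fibres. The 10 described here are Myh7 (the slow myosin heavy chain), Myl2 and Myl3 (its light chains), Tnnt1, Tnni1 and Tnnc1 (the slow troponin subunits), Tpm3 (slow tropomyosin), Atp2a2 (the calcium pump SERCA2), Casq2 (calsequestrin 2, a calcium buffer) and Sln (sarcolipin, a small inhibitor of the pump). Of the 39768 accessible intervals in the table, those that overlapped the body of one of the 10 genes, or had their nearest end within 10 kb of one of its transcription start sites (TSS), were taken, by the GENCODE vM1 annotation of mm9. This gave 31 intervals, which fell to 7 genes. Myh7, Myl2 and Sln had no interval in the table. The table holds fewer intervals than the union that the methods describe, so that no interval here means only that this table lists none, not that the DNA was closed.

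Accessibility was measured by ATAC-seq, in which the Tn5 transposase cuts exposed DNA and the ends of the fragments are counted in each interval. The study asked whether the histone variant H2A.Z is needed in muscle fibres that no longer divide. The 6 libraries were made from 50000 nuclei each of the tibialis anterior muscle, per the labels, of C57BL/6 mice at 7 weeks of age. All mice carried H2A.Z-1 flox/flox and H2A.Z-2 flox/flox alleles. The 3 CTL libraries came from mice without Cre (HSA CRE -), although the titles of these libraries say WT, and the 3 libraries labelled H2A.Z dKO from mice with HSA CRE +, a transgene in which the human skeletal actin promoter drives the recombinase in differentiated muscle fibres, so that other cells of the muscle keep H2A.Z. Neither the labels nor the methods say that each library came from a separate mouse, so p-values measure the spread between libraries.

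The library totals ran from 3520008 to 6117245 counts. In H2afz, which encodes H2A.Z-1, the loxP sites flank exons 2 to 4. The segment from exon 2 to exon 4 was overlapped by 2 intervals, which held 79, 69 and 33 counts in CTL. The H2A.Z dKO-labelled libraries held 57, 52 and 64. Scaled to a library total of 1000000 counts (CPM), these ranges overlapped (9.38 to 14.9 in CTL and 9.71 to 12.7 in H2A.Z dKO), so the loss of the segment was not visible in these intervals. The positions of the loxP sites were not used, and the intervals may reach beyond the deleted segment. The paper reports depletion of H2A.Z in such muscles by RT-qPCR and western blotting, with a remaining signal that it assigns to non-muscle cells. The floxed exons 4 to 5 of H2afv, which encodes H2A.Z-2, held no interval. The share of counts at promoters was 77.0% in H2A.Z dKO replicate 1 against 73.2% to 74.9% in the other 5 libraries.

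The tibialis anterior of the mouse is made mostly of fast fibres, and slow fibres are few in it. Of the muscle fibre markers Acta1, Ckm, Myh4, Myh1, Tnnt3, Ryr1 and Ttn, 6 of 7 had an interval at a promoter, that is, with its midpoint within 1 kb of an annotated TSS of the gene. Of 6 cardiac markers none had one, of 6 endothelial markers 4, of 5 fibroblast markers 4, and of 5 macrophage markers none. Promoters of other cell types were thus in the table too. In such a mixture, fewer nuclei of a type and less open chromatin per nucleus cannot be told apart.

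Of the 10 slow-fibre genes, 4 had a promoter interval (Tnnt1, Tpm3, Atp2a2 and Casq2), against 7 of 11 fast counterparts and 49.2% of 22225 protein-coding genes. Of these 4 genes, 2 had no interval at the first start, which gives the muscle protein. For Tpm3 the interval covered an internal start, and for Tnnt1 it lay inside the gene, at the start of a transcript that keeps an intron. The sequences below, read from mm9 on the strand of the gene, show starts with and without an interval in the table. Capitals mark matches, on either strand, to motifs known from muscle or housekeeping promoters: the E box (CANNTG), the MCAT element (CATTCC), the TATA box (TATAAA), the GC box (GGGCGG), MEF3 (TCAGGTTTC) and, by name, the MEF2 site and the CArG box. The first 3 are the accessible sequence before the starts of Casq2, Tpm3 (internal) and Atp2a2, where the last 2 stop at the base before the start.
Casq2, chr3:101889766-101889971, plus strand: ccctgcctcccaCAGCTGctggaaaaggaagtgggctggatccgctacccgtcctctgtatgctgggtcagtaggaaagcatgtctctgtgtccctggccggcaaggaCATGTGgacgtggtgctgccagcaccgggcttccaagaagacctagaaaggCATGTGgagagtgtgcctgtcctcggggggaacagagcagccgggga
Tpm3 internal start, chr3:89883222-89883461, plus strand: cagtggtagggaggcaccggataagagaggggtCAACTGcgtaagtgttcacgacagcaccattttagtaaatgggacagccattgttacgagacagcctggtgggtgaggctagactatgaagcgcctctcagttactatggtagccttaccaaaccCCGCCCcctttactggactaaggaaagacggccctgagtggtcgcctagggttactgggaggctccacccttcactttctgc
Atp2a2, chr5:122952184-122952483, minus strand: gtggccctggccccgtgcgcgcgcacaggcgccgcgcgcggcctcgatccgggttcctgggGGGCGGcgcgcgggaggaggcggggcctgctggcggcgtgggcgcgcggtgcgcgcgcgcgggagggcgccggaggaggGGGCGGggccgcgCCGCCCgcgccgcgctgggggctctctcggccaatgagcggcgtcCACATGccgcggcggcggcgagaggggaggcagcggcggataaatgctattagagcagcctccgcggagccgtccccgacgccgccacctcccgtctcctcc
In contrast, no interval lay at the first start of Tpm3 or at those of Myh7 and Sln. The 250 bases before each are given to show the sequences that lacked one.
Tpm3 muscle start, chr3:89876321-89876570, plus strand: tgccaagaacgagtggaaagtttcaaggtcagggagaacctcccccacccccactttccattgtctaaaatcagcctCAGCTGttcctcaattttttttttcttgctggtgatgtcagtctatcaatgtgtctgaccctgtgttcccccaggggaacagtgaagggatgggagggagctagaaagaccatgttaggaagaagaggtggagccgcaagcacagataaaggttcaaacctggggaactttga
Myh7, chr14:55613472-55613721, minus strand: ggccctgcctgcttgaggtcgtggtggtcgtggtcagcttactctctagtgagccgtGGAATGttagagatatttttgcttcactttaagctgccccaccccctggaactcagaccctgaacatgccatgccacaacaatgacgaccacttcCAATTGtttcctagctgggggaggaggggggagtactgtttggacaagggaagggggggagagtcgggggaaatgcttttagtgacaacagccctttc
Sln, chr9:53697808-53698057, plus strand: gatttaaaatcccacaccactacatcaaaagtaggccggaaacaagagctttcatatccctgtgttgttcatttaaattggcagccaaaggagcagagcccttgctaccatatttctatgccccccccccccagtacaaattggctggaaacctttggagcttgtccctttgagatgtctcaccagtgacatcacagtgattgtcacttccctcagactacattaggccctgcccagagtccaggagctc

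These sequences differed in composition. The Atp2a2 window had 53 CpG dinucleotides in 300 bases, a GC content of 80.7% and 3 GC boxes, a motif found in 34.9% of windows of that length before 29951 protein-coding starts. The window of the internal Tpm3 start had 8 CpG, 1 GC box and 1 E box, where 33.5% of windows of 240 bases hold a GC box and 64.3% an E box. The Casq2 interval had 3 E boxes and no GC box, where 58.2% of windows of 206 bases centred on the 39768 intervals hold an E box. At the muscle start of Tpm3 there were 2 CpG and 1 E box, a motif in 65.9% of windows of 250 bases. The Myh7 window held 5 CpG, 1 E box and 1 MCAT motif, which 11.7% of such windows hold. The Sln window held 1 CpG and none of the 7 motifs. None of the windows shown held a TATA box, a MEF3, a MEF2 site or a CArG box as spelled here. In the 250 bases before the starts of these genes that are not printed, a MEF2 site was found at Casq2 and at the first start of Myl2 (3.08% of such windows), a CArG box at Myl3 (1.37%) and an MCAT motif at Myl3 and Tnnc1.

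The CpG content of the start went with the presence of an interval over the whole annotation. Starts of protein-coding transcripts within 1 kb of each other in a gene were joined, which left 29952 starts, and the observed over expected CpG ratio was taken over the 250 bases before each. With the starts ranked by this ratio and cut into 4 groups of like size, a promoter interval was present at 5.74% of the starts in the lowest group, 15.1% in the next, then 51.7%, and 80.1% in the highest. The 10 slow-fibre genes had 14 starts. The start at the promoter interval of Tnnt1 is not among them, since its transcript keeps an intron and is not a protein-coding one. That interval itself held 0 CpG. The 3 starts with an interval, those of Atp2a2 (ratio 1.07), Casq2 (0.484) and the internal start of Tpm3 (0.483), all lay above the median of all starts (0.392). The 11 starts without one lay below it. Among these were both starts of Myl2 (0.245 and 0.334), those of Myh7 (0.279), Tnnt1 (0.103), Tnnc1 (0), Myl3 (0.0456) and Sln (0.0719), and the 3 of Tnni1 (0.118 to 0.332). The fast counterparts did not follow this order: 8 of their 18 starts had an interval, and 6 of these 8 lay below the median, such as those of Myh4 (0.0909), Tnnt3 (0) and Casq1 (0.13). This is a description, in which no difference was tested.

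**Figure D1:**
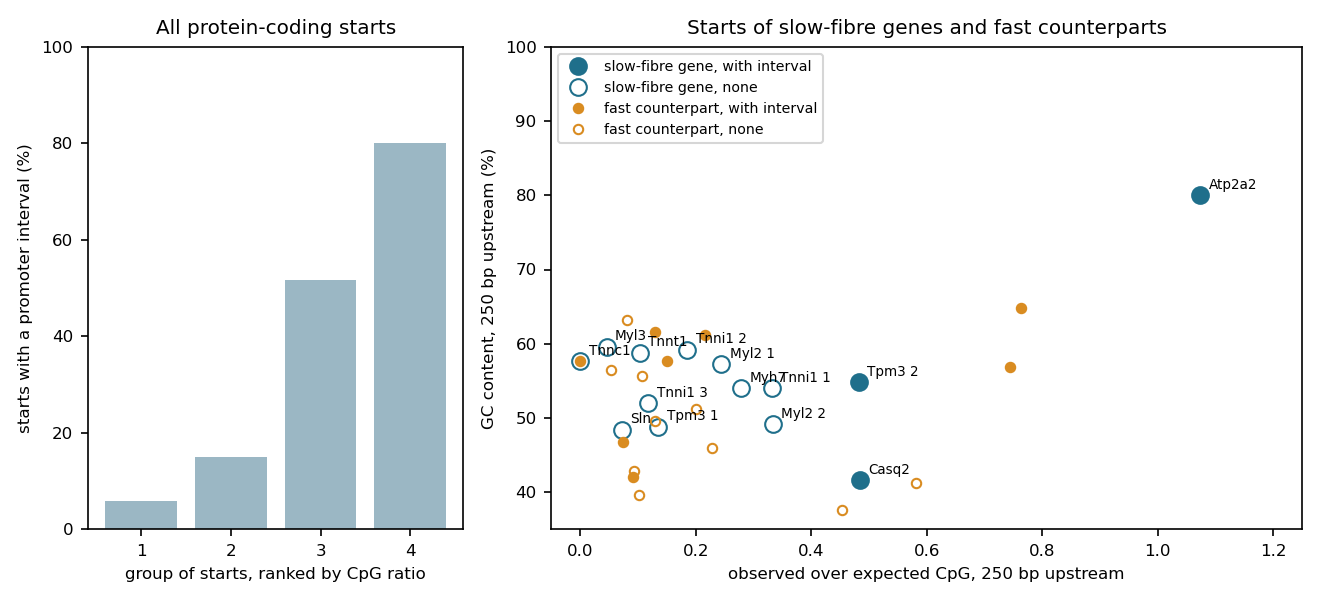
Left, the share of all protein-coding starts with a promoter interval in each of 4 groups ranked by CpG ratio, from 5.74% to 80.1%. Right, GC content against the observed over expected CpG ratio of the 250 bases before each start of the slow-fibre genes (blue, large) and their fast counterparts (orange, small), filled where the start has an interval; numbers after a name count the starts of a gene in its reading direction. Filled blue points lie at a ratio of 0.483 or above, while filled orange points lie at both ends.

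The troponin genes held 16 of the 31 intervals. Tnnt1, which encodes the slow subunit that binds tropomyosin, had 7. Of these, 3 lay at the promoter of the neighbouring gene Ppp1r12c, the highest being Peak_14386 (chr7:4453216-4453428), and 3 lay side by side about 5 kb past the nearest Tnnt1 start. At Peak_14386 the RPKM, the CPM divided by the width of the interval in kilobases, were 217, 214 and 201 in CTL and 230, 223 and 249 in H2A.Z dKO. All 3 H2A.Z dKO libraries lay above all 3 CTL libraries, by a log2 fold change of only 0.15 ± 0.13 (SE), with an adjusted p of 0.978 in edgeR. Scaled counts did not overlap between the groups in 10.8% of all intervals and in 2 of these 31. By direction, H2A.Z dKO was wholly above in this interval, as in 5.22% of all, and wholly below in 1, as in 5.63% of all.

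The remaining interval of Tnnt1, Peak_14392 (chr7:4461701-4461731), was 31 bp wide and lay in an intron. It is shown because it is the only one inside the gene.
Tnnt1 Peak_14392, chr7:4461701-4461731, minus strand: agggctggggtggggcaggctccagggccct
It held none of the 7 motifs, of which the E box is the most frequent, in 10.6% of windows of this length. Its RPKM were 142, 118 and 138 in CTL and 121, 156 and 96.4 in H2A.Z dKO, from 15 to 27 counts per library. The groups overlapped, with H2A.Z dKO replicate 2 the highest and replicate 3 the lowest. The log2 fold change was -0.11 ± 0.28 (SE, edgeR adjusted p = 0.993), with a 95% confidence interval from -0.68 to 0.46.

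Peak_14389, Peak_14390 and Peak_14391, the group of intervals between Ppp1r12c and Tnnt1, had the smallest p of all those that were lower in H2A.Z dKO. The authors listed for each interval the group in which it was found. Peak_14389 and Peak_14391 were listed for CTL only, a selection that favours lower values in H2A.Z dKO. Peak_14390 was listed for H2A.Z dKO only. The RPKM of Peak_14391 (chr7:4454474-4454574) were 90.6, 122 and 129 in CTL and 72.5, 115 and 76.9 in H2A.Z dKO. Its groups overlapped, and the log2 fold change of -0.36 ± 0.24 (SE) did not pass (edgeR adjusted p = 0.972). That of Peak_14389 was -0.24 ± 0.22 (SE) and that of Peak_14390 was -0.18 ± 0.19 (SE), and since Peak_14390 overlaps both of the others, which do not overlap each other, its counts are not independent of theirs. Without H2A.Z dKO replicate 2 the log2 fold changes of Peak_14391 and Peak_14390 were -0.58 and -0.33, and without H2A.Z dKO replicate 3 that of Peak_14390 was -0.11.

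Tnni1 encodes the slow inhibitory subunit of troponin. It had 4 intervals, none at an annotated start. The highest was Peak_1528 (chr1:137677966-137678036), 1.61 kb upstream of the first start, and Peak_1529 (chr1:137684578-137684643), in an intron, had the largest log2 fold change of the 31. Both are shown for this reason.
Tnni1 Peak_1528, chr1:137677966-137678036, plus strand: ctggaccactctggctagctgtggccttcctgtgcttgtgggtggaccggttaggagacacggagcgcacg
Tnni1 Peak_1529, chr1:137684578-137684643, plus strand: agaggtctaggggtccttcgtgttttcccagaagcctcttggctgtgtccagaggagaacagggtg
Neither held any of the 7 motifs. An E box is in 25% of windows of 71 bases and in 23.4% of windows of 66 bases. At Peak_1528 the RPKM were 140, 152 and 140 in CTL and 103, 158 and 140 in H2A.Z dKO, and the log2 fold change was -0.12 ± 0.22 (SE, edgeR adjusted p = 0.993). At Peak_1529 they were 84.2, 42.6 and 43.0 in CTL and 92.9, 93.2 and 81.5 in H2A.Z dKO, from 34, 13 and 10 counts against 36, 28 and 27. Here CTL replicates 2 and 3 stood low, while CTL replicate 1 lay within the range of the H2A.Z dKO libraries. Peak_1529 was listed as found in H2A.Z dKO only, a selection from the same libraries that favours higher values there. The log2 fold change was 0.58 ± 0.28 (SE, 95% confidence interval -0.01 to 1.17, edgeR adjusted p = 0.972). Leaving out 1 library at a time moved it between 0.40 and 1.06, the latter without CTL replicate 1.

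Summed over its 4 intervals, which do not overlap each other, Tnni1 had 38.6, 39.1 and 36.1 CPM in CTL and 40.7, 45.3 and 46 in H2A.Z dKO. Every H2A.Z dKO library was above every CTL library, a difference of 6.07 CPM (exact permutation test, two-sided p = 0.1, the smallest that 3 libraries against 3 allow). Peak_1527, Peak_1529 and Peak_1530 were listed as found in H2A.Z dKO only, a selection from the same libraries that favours higher values there. Peak_1528, listed for both groups, had a log2 fold change of -0.12. The separation of the sums is thus no separate evidence. The p given is that of 1 of the 7 genes with an interval. For the 6 others p ran from 0.3 to 1.

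Tnnc1 encodes the calcium-binding subunit that slow and cardiac muscle share. It had 5 intervals, of which 3 lay at the promoter of the neighbour Nisch, where Peak_30460 overlapped both of the others, and 1 more was included only through a second gene model of that name, which begins far upstream. The RPKM of Peak_30461 (chr14:32019961-32020016), at the Nisch promoter, were 137, 154 and 208 in CTL and 164, 173 and 178 in H2A.Z dKO, so that the H2A.Z dKO values lay inside the CTL range. Peak_30462 (chr14:32028851-32028873), 23 bp wide and 7.33 kb from the start, was the other interval whose scaled counts did not overlap, with RPKM of 149, 150 and 148 in CTL and 133, 115 and 121 in H2A.Z dKO. A log2 fold change of -0.27 ± 0.28 (SE, edgeR adjusted p = 0.985) rested on 12 to 21 counts per library. Peak_30462 was listed as found in CTL only, a selection from the same libraries that favours lower values in H2A.Z dKO.

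Of the myosin genes only Myl3, the slow essential light chain, had an interval. Peak_21325 (chr9:110661225-110661378) lay 4.77 kb upstream of its start. Its RPKM were 76.4, 87.0 and 84.9 in CTL and 71.9, 103 and 76.3 in H2A.Z dKO, with a log2 fold change of 0.01 ± 0.21 (SE, edgeR adjusted p = 0.999). H2A.Z dKO replicate 2 was highest and replicate 1 lowest. For Myh7 (chr14:55589525-55613471, minus strand) the nearest interval was 20.2 kb from a start, at the promoter of Ngdn, and for Myl2 (chr5:122550960-122563481, plus strand), the slow regulatory light chain, it was 11.8 kb away, at no promoter.

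Tpm3 encodes a tropomyosin, the rod that lies along the thin filament. By the annotation, transcripts from its first start, at position 89876571 of chromosome 3, code for proteins of 284 or 285 residues, the length of muscle tropomyosin, and the complete models from the internal start at 89883462 for 247 or 248 residues, the length of the cytoskeletal forms found in most cells. The only interval, Peak_6320 (chr3:89883222-89883668), covered the internal start and was 447 bp wide, the widest of the 31. The RPKM were 188, 214 and 205 in CTL and 178, 183 and 208 in H2A.Z dKO, at percentile 88.5 of all intervals. The groups overlapped, and with 323 to 513 counts per library the log2 fold change of -0.09 ± 0.11 (SE, 95% confidence interval -0.32 to 0.14, edgeR adjusted p = 0.987) was the most precise of the 31. It was -0.16 without H2A.Z dKO replicate 3 and -0.05 without CTL replicate 2.

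Atp2a2 encodes the pump that returns calcium to the store in slow and cardiac muscle, with a form made in most other cells. All 3 of its intervals were at its start. Peak_11479 (chr5:122952135-122952497) covered it, with RPKM of 116, 138 and 95.5 in CTL and 106, 119 and 144 in H2A.Z dKO. The groups overlapped throughout, and the log2 fold change was 0.07 ± 0.15 (SE, edgeR adjusted p = 0.993). Peak_11480 and Peak_11481, which overlap each other about 0.4 kb further upstream, had mean RPKM of 87.2 and 116 and log2 fold changes of 0.06 ± 0.22 (SE) and -0.10 ± 0.23 (SE).

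Casq2 had 10 intervals, the most of any of the genes, and 6 of them lay in its first intron. The interval upstream of the start, Peak_6584 (chr3:101889766-101889971), whose nearest end is 367 bp from it, had RPKM of 83.3, 75.5 and 95.2 in CTL and 66.1, 100.3 and 80.2 in H2A.Z dKO. The log2 fold change was -0.05 ± 0.20 (SE, edgeR adjusted p = 0.998). H2A.Z dKO replicates 1 and 2 were the lowest and the highest of the 6 libraries. Peak_6586 (chr3:101891679-101891698), 1117 bp past the nearest of its annotated starts, had the highest RPKM of Casq2, 155, 151 and 156 in CTL and 111, 209 and 179 in H2A.Z dKO, but is 20 bp wide and rests on 11 to 19 counts per library.

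A pair of neighbouring intervals about 13 kb past the start, in that intron, had higher means in H2A.Z dKO, without passing the test. Both were listed as found in H2A.Z dKO only, a selection from the same libraries that favours higher values there. At Peak_6589 (chr3:101903805-101903924) the RPKM were 51.8, 50.4 and 82.9 in CTL and 100.7, 100.7 and 64.7 in H2A.Z dKO, where CTL replicate 3 stood above H2A.Z dKO replicate 3. The log2 fold change was 0.57 ± 0.26 (SE, 95% confidence interval 0.04 to 1.10). Its unadjusted p of 0.0373 was the only one under 0.05 among the 31, against 4.95% of all 39768 intervals, and the edgeR adjusted p was 0.972. DESeq2 gave none of the 31 an unadjusted p under 0.05, against 1.9% of all. At Peak_6590 (chr3:101903991-101904088) the RPKM were 93.4, 35.3 and 63.8 in CTL and 71.2, 100.9 and 87.4 in H2A.Z dKO, with a log2 fold change of 0.38 ± 0.28 (SE, edgeR adjusted p = 0.972). It was 0.08 without CTL replicate 2 and 0.83 without CTL replicate 1.

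Sln (chr9:53698058-53701651, plus strand) had no interval. The nearest was 15 kb from its start, at the promoter of Gm11147.

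**Figure D2:**
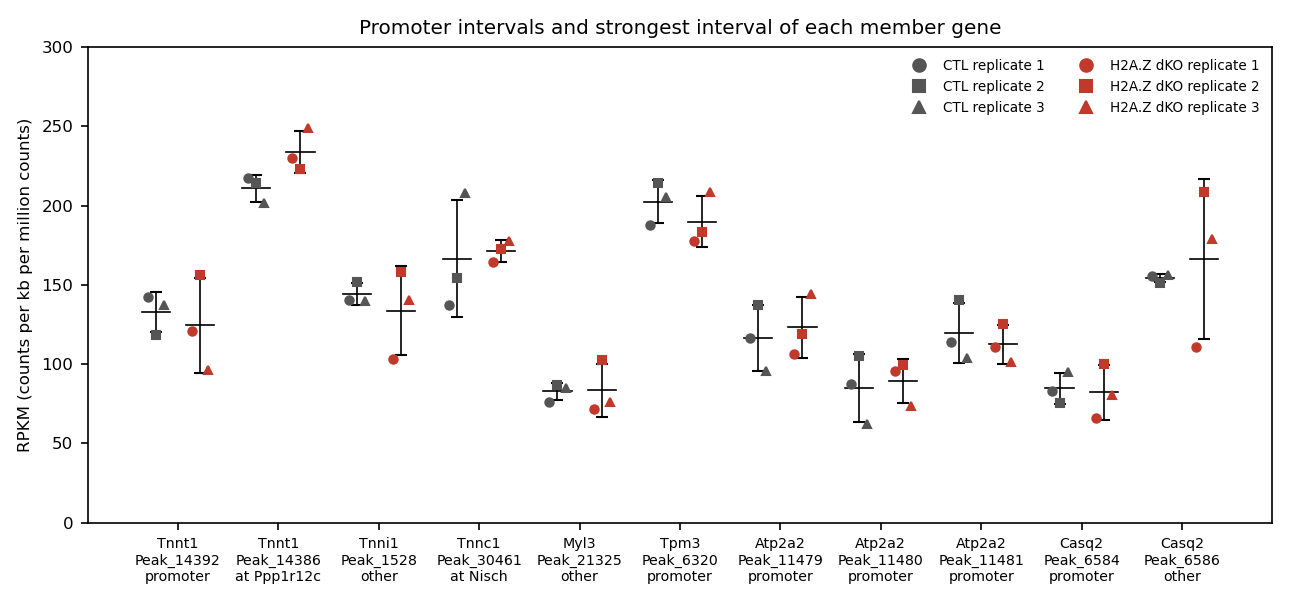
RPKM (CPM per kilobase, vertical axis) of the promoter intervals and of the highest interval of each slow-fibre gene, in the 3 CTL libraries (grey) and the 3 libraries labelled H2A.Z dKO (red), with mean and SD. The groups overlap at every interval drawn except Peak_14386, at the promoter of Ppp1r12c.

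Ordered by the mean CTL level of the interval with the highest RPKM, the genes ran from Tnnt1 (211 ± 8.35, SD, n = 3, at the promoter of Ppp1r12c) and Tpm3 (202 ± 13.5, SD, n = 3) over Tnnc1 (166 ± 36.9, SD, n = 3, at that of Nisch), Casq2 (154 ± 2.67, SD, n = 3), Tnni1 (144 ± 6.86, SD, n = 3) and Atp2a2 (116 ± 21, SD, n = 3) to Myl3 (82.8 ± 5.58, SD, n = 3). From Tnnt1 down to Tnni1 the CTL libraries of each gene overlapped those of the next, whereas Atp2a2 lay wholly below Tnni1, and Myl3 wholly below Atp2a2. RPKM also vary with interval width, which here runs from 20 bp (Casq2) to 447 bp (Tpm3). Among intervals within 20% of their own width, the mean RPKM over all 6 libraries stood at percentile 96.2 for Tnnt1, 89.4 for Tnnc1, 81.1 for Tnni1, 71.6 for Tpm3, 58.1 for Casq2, 35.3 for Atp2a2 and 31.9 for Myl3, so that Tpm3 and Casq2 came after Tnnc1 and Tnni1. The mean RPKM of the 31 had a median of 102 and a range of 60.7 to 222, where the median of all intervals was 116. They were also narrower, with a median width of 103 bp against 137 bp. The column in which the authors listed where an interval was found gave 7 of the 31 for both groups, 8 for CTL only and 16 for H2A.Z dKO only, where all intervals gave 38.7%, 17.9% and 43.4%. The fold changes follow part of this listing: 13 of the 16 intervals found only in H2A.Z dKO had a log2 fold change above 0, and 6 of the 8 found only in CTL had one below 0. Since the listing and the counts come from the same libraries, this is no separate evidence.

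Over the 31 intervals, none passed an adjusted p of 0.05 in edgeR, and none of all 39768 did (0%). The adjusted p ran from 0.972 to 0.999. The log2 fold change was above 0 in 18 and below 0 in 13, with a median of 0.03, a lowest value of -0.36 and a highest of 0.58, and the median over all intervals was 0.01. A 2-fold change either way was outside the 95% confidence interval of 29 of the 31, against 91.4% of all intervals, and a 1.5-fold change outside that of 18. The exceptions to the first were Peak_1529 and Peak_6589. Of the 31, 12 overlapped another interval and 6 lay at promoters of other genes, so these counts are not over separate measurements. The share of counts in the 31 intervals was 0.0492%, 0.0532% and 0.0511% in CTL against 0.0485%, 0.0549% and 0.0524% in the other group (p = 0.8 in an exact permutation test, two-sided). That in the 6 promoter intervals was 0.0168%, 0.0189% and 0.0166% in CTL against 0.0157%, 0.0173% and 0.0182% (p = 0.8 in the same exact test).

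**Figure D3:**
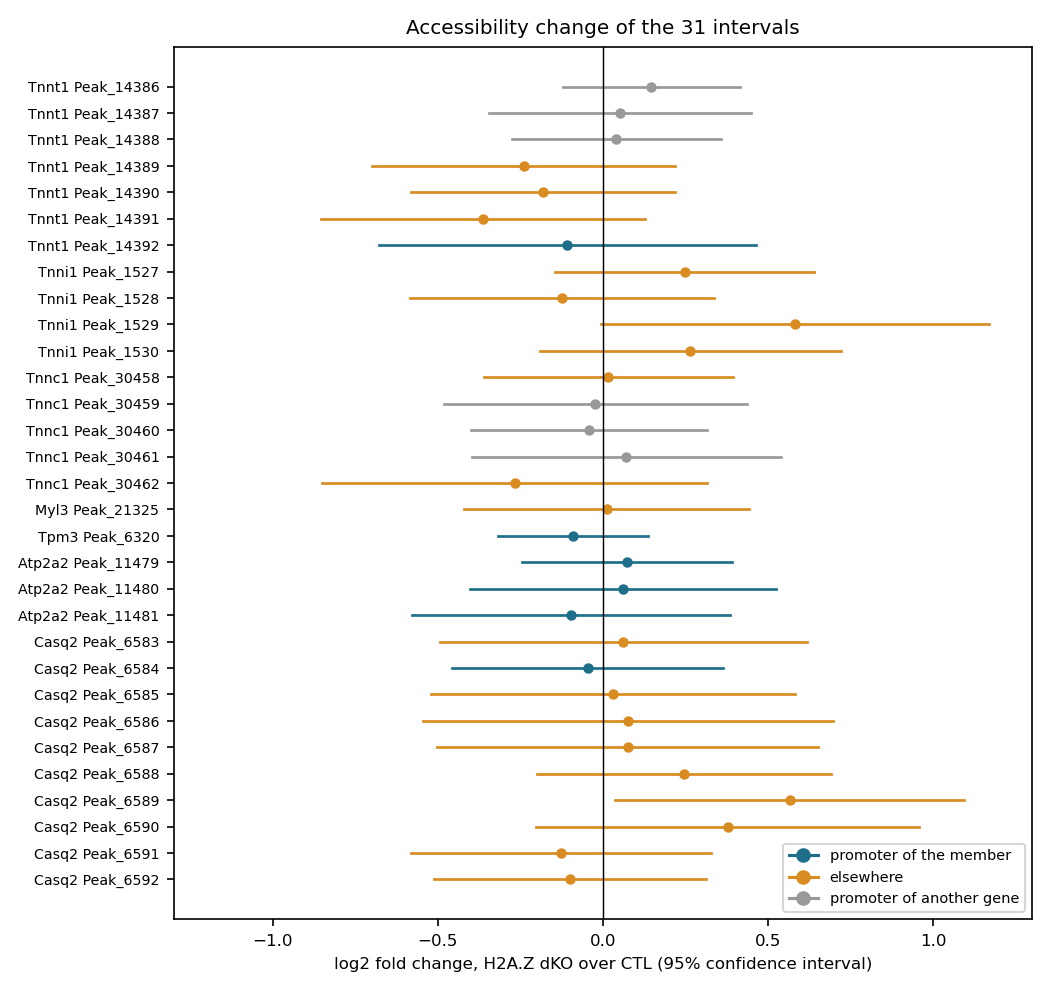
Log2 fold change of H2A.Z dKO over CTL with its 95% confidence interval (horizontal axis, edgeR) for each of the 31 intervals, coloured by whether it lies at a promoter of the slow-fibre gene, at a promoter of another gene or elsewhere. All but 1 of the confidence intervals include 0, the exception being Peak_6589 of Casq2 (0.04 to 1.10). Peak_6589 was listed as found in H2A.Z dKO only.

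At the markers of other cells no interval passed the adjusted test in edgeR. Of 17 intervals at the endothelial markers, 14 had a log2 fold change below 0 (median -0.31), as did 5 of 6 at the macrophage markers (median -0.17), 5 of 6 at the smooth muscle markers (median -0.19) and 4 of 5 at the cardiac markers (median -0.11). In the other direction, 8 of 11 at the fibroblast markers (median 0.13) and 3 of 3 at the satellite cell markers (median 0.18) were above 0, and those of Schwann cells were 1 and 1. At an unadjusted p under 0.05 were 2 of the endothelial intervals, 1 of the macrophage and 1 of the fibroblast intervals, and 2 of the 24 at the muscle fibre markers, both higher, where 4.95% of all intervals were. Promoter intervals of the endothelial markers, which 4 of the 6 genes had (Pecam1 and Emcn had none), summed to 0.00559% to 0.00689% of the counts in CTL and to 0.0046% to 0.00509% in H2A.Z dKO. Those of the fibroblast markers, of which Dcn had none, summed to 0.00772% to 0.00948% and 0.00936% to 0.0101%, and those of the muscle fibre markers to 0.03% to 0.0408% and 0.0306% to 0.0421%. The part of such differences in the values of the slow-fibre genes was not tested.

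The fast counterparts, which encode the same proteins for fast fibres, were set beside the slow genes within each library, since both come from the same nuclei. For each gene the promoter interval with the highest mean RPKM was used. In 3 pairs both genes had one. The slow gene had 1 to choose from in each of them, whereas Casq1 had 4, Tnnt3 had 3 and Tpm1 had 2. The choice used the same libraries as the tests. The p-values therefore tell only whether the difference between the chosen intervals recurred over the libraries, not whether slow and fast genes differ. Casq2 was lower than Casq1, the calsequestrin of fast fibres, in 6 of 6 libraries. Casq1 had RPKM of 203, 207 and 239 in CTL and 191, 255 and 211 in H2A.Z dKO (Peak_2064, chr1:174150148-174150197), all above the highest value of Casq2 in Peak_6584. The difference of log2(RPKM + 0.5) was -1.38 ± 0.0898 (SD, n = 6; exact sign-flip permutation test, two-sided p = 0.0312, the smallest possible, 0.0469 adjusted over 3 pairs). It was -0.46 when the promoter window was widened to 2 kb, since the 20-bp Peak_6586 then stood for Casq2, and -2.30 with the CPM of all promoter intervals summed. The difference was -1.35 in CTL and -1.42 in H2A.Z dKO.

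Tnnt1 was lower than Tnnt3, the fast troponin T, in 6 of 6 libraries. Tnnt3 had RPKM of 250, 235 and 284 in CTL and 265, 304 and 287 in H2A.Z dKO (Peak_17048, chr7:149683846-149683879), and the difference was -1.08 ± 0.26 (SD, n = 6; exact sign-flip permutation test, two-sided p = 0.0312, adjusted 0.0469). With summed CPM it was -3.99. The Tnnt1 interval used is that at the transcript that keeps an intron, as its coding start had none. Tpm3 and Tpm1, the fast tropomyosin, did not differ beyond the spread, with 0.05 ± 0.17 (SD, n = 6; exact sign-flip permutation test, two-sided p = 0.531) and a range of -0.11 to 0.30. Both values come from internal starts, since Peak_20546 (chr9:66891531-66891886), the interval used for Tpm1, lay at the second of its 2 starts. With the counts of all promoter intervals summed, Tpm3 was lower, by -0.80 on the log2 scale, since Tpm1 had 2 such intervals.

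Interval widths differed within these pairs, so each level was also read among intervals of the table within 20% of its width. On that scale Casq2 (206 bp) stood at percentile 25.8 and Casq1 (50 bp) at percentile 96.1. Tnnt1 (31 bp) stood at percentile 51.9 and Tnnt3 (34 bp) at percentile 98.3. Tpm3 (447 bp) and Tpm1 (356 bp) stood at percentiles 71.6 and 78.1.

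In the other pairs 1 gene or neither had a promoter interval, and no test was made. Myh4, the myosin heavy chain of the fastest fibres, had a mean RPKM of 185 ± 50.4 (SD, n = 6), Tnni2 of 190 ± 31.6 (SD, n = 6), Tnnc2 of 170 ± 27.1 (SD, n = 6) and Myl1 of 108 ± 18.5 (SD, n = 6), where Myh7, Tnni1, Tnnc1 and Myl3 had none. In the reverse direction, Atp2a2 had promoter intervals and Atp2a1, the pump of fast fibres, had none. Myl2 and its counterpart Mylpf both lacked one, as did Myh1 and Myh2. The differences between slow and fast genes were also compared between the groups (exact permutation tests, two-sided p = 0.3 to 0.8). Such a test with 3 libraries against 3 cannot give a p below 0.1, so no conclusion is drawn from it. Tnnt1 minus Tnnt3 was -0.95 in CTL and -1.22 in H2A.Z dKO, and Tpm3 minus Tpm1 was 0.07 and 0.03.

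**Figure D4:**
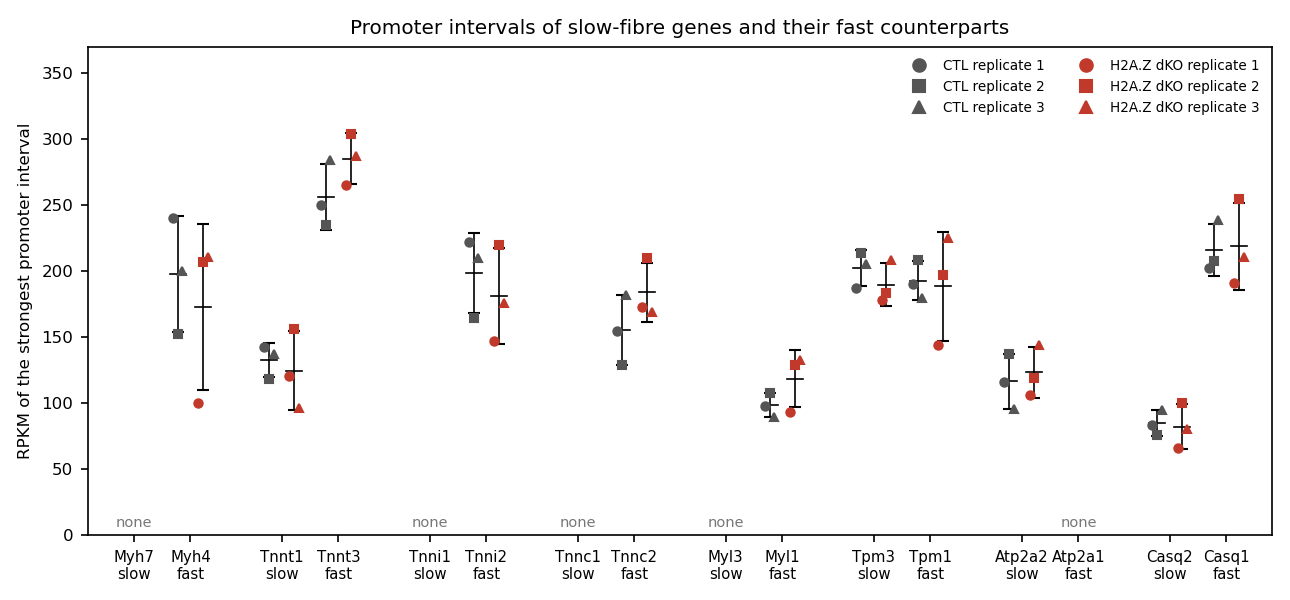
RPKM of the strongest promoter interval of slow-fibre genes and their fast counterparts (vertical axis) in the 3 CTL libraries (grey) and the 3 libraries labelled H2A.Z dKO (red), with mean and SD; "none" marks genes with no promoter interval. The values of Casq1 and Tnnt3 lie above those of Casq2 and Tnnt1 in every library, and those of Tpm3 and Tpm1 overlap.

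Any interval was present for 7 of the 10 genes, against 60.3% of all protein-coding genes. Of 11 other genes of slow and cardiac-type muscle, 6 had any interval and 3 a promoter interval (Myl6b, Ankrd2 and Ldhb), and Myh6, Myh7b, Myoz2, Csrp3 and Smpx had no interval at all. Their 28 intervals had 15 log2 fold changes above 0 and 13 below, with none passing the adjusted test and 2 at an unadjusted p under 0.05, 1 higher (Myl6b) and 1 lower (Pln). Of 20 regulators of the slow programme, among them the calcineurin subunits, the NFAT and MEF2 factors and Ppargc1a, 19 had a promoter interval, the exception being Esrrg. Of their 104 intervals, 58 were above 0 and 46 below, with a median log2 fold change of 0.04 and none passing the adjusted test. At an unadjusted p under 0.05 were 7 of these 104, 3 higher and 4 lower, near the 4.95% of all intervals.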

How the data were processed

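ATAC-seq counts of 6 libraries were analysed. The authors trimmed reads with Trimmomatic, aligned them to mm9 with Bowtie2 (named in the submitters' processing notes), removed duplicates with Picard, shifted and extended the fragment ends, called peaks with MACS2 and counted ends per union interval. The deposited counts are not normalized, and overlapping intervals share ends. The authors also deposited values of their DESeq2 comparison, a log2 fold change with its error, a score and p-values, which were not used; 0 columns of counts were left unused. Starts were read as 0-based, because the narrowest 98 intervals have an end minus start of 9, and are printed 1-based.

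The members and lists were chosen with earlier results of these data known. Named are every promoter interval, the highest interval of each gene, the 3 smallest p in each direction and the strongest promoter interval of fast counterparts; Peak_30462 was added after its values were seen. Counts were tested with edgeR 4.0.16 (TMM factors 0.971 to 1.02, robust quasi-likelihood test, no filter, Benjamini-Hochberg over 39768 intervals, threshold 0.05) in R 4.3.3, after tests on simulated data. Standard errors were |log2 fold change| over the square root of F. RPKM use the total of all intervals. Sequence and annotation came from the mm9 genome and GENCODE vM1. Alternatives were DESeq2 1.42.0, other scalings, filterByExpr, a replicate block, other windows and pseudocounts, and each library left out. Errors cover counting and the spread between libraries. The methods describe hind limb muscles and a Dounce homogenizer, and the labels tibialis anterior and ultracentrifugation.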

Additional observations from a re-analysis of the deposited data

How the results depend on the processing

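None of the 31 intervals passed an adjusted p of 0.05 under DESeq2, median-of-ratios factors, total counts, filterByExpr, a replicate block or without any 1 library, nor at a threshold of 0.1. Their median log2 fold change, 0.03 in the fit reported, was 0.00432 with the replicate block and between -0.06 and 0.03 without 1 library, all within the spread between libraries (SD 0.0975). Same-numbered libraries did not deviate together (correlations -0.0977, -0.053 and -0.0323), so the numbers were not taken to pair them.

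Of 187 recomputed log2 fold changes of 17 named intervals, 173 kept their sign. The 14 of the other sign all came from leaving out 1 library, with ranges of -0.198 to 0.0752 (Peak_6584), -0.056 to 0.208 (Peak_11479), -0.0942 to 0.231 (Peak_11480), -0.17 to 0.0329 (Peak_11481), -0.271 to 0.0383 (Peak_14392), -0.1002 to 0.301 (Peak_6586), -0.145 to 0.0925 (Peak_21325), -0.0632 to 0.24 (Peak_30461) and -0.244 to 0.022 (Peak_1528). The 8 others kept their sign, with ranges of -0.164 to -0.0464 (Peak_6320), -0.579 to -0.25 (Peak_14391), -0.333 to -0.172 (Peak_14389), -0.327 to -0.107 (Peak_14390), 0.102 to 0.19 (Peak_14386), 0.436 to 0.798 (Peak_6589), 0.398 to 1.06 (Peak_1529) and 0.0846 to 0.832 (Peak_6590). The difference in the share of counts in all 31 intervals, 0.000764 percentage points, ran from -0.000706 to 0.00245 without 1 library, and that in the promoter intervals, -0.000354, from -0.000933 to 0.000389.

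Tpm3 minus Tpm1 became -0.80 with summed counts (exact permutation p = 0.0312), and ran from -0.00166 to 0.0817 without 1 library. Tnnt1 minus Tnnt3 ran from -1.14 to -0.99 and Casq2 minus Casq1 from -1.41 to -1.36 without 1 library, where 5 libraries cannot give a p below 0.0625. Without H2A.Z dKO replicate 1, the smallest adjusted p of the 31 was 0.697. Depth limits the narrow intervals most: 24 of the 31 had 20 or more counts in every library.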
